A study of Rattus norvegicus with 25 samples.

Results

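Gingiva from rats with ligature-induced periodontitis that had received curcumin gel (Cur gel group) was compared with gingiva from sham rats, over all genes measured. The comparison used 10 of the 25 libraries of the series, 5 per group and 1 rat per library. Reads of the transcripts of each gene were summed, and 16052 of 29818 genes passed a minimum of 2 CPM (reads scaled to a common library total) in at least 1 library and were tested. All rats were wild-type male Sprague-Dawley rats, given as 6 weeks old in the labels and as 8 weeks old in the methods. In the Cur gel group silk ligatures on the maxillary first molars of both sides were combined with inoculation of Porphyromonas gingivalis (experimental periodontitis, EP). About a month later, 200 μL of methylcellulose hydrogel with 2 mg/mL curcumin was injected weekly into the pockets for 4 weeks. Sham rats received hydrogel without the drug. The EP group, used here only for values side by side, had the ligatures and the bacterium, and whether it received plain gel is not stated. Cur gel and sham rats therefore differed in ligature, bacterium and curcumin at once, and their parts in a difference cannot be told apart.

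Gingiva consists of a stratified oral epithelium, a thin junctional epithelium that seals the gum to the tooth, and a collagen-rich connective tissue with vessels, nerves and resident macrophages and mast cells. In periodontitis the seal is lost, immune cells enter and the alveolar bone beneath is resorbed. Curcumin is a plant polyphenol studied for its antioxidant and anti-inflammatory effects, and it is reduced and conjugated with sulfate or glucuronide in tissue.

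The sham group held 50690789 to 61490425 reads per library and the Cur gel group 61098643 to 68583320. Values are normalized counts (reads divided by the size factor of the library), differences are on the log2(normalized count + 1) scale, Cur gel minus sham, and adjusted p-values are those of limma over all genes tested. The sham libraries varied more than the treated ones. The median standard deviation of log2 values over genes was 0.495 in sham and 0.291 in Cur gel, and it was larger in sham for 74.7% of genes. Sham 1, Sham 3 and Sham 4 were rich in transcripts of nerve cells, and Sham 4 also held 22.9% of its reads in genes of nasal glands and odorant-binding proteins. Sham 1, Sham 4 and Sham 5 were rich in B cell transcripts. Cur gel 2, Cur gel 3 and Cur gel 5 were rich in muscle transcripts. Genes of differentiated oral keratinocytes, which mark the labelled tissue, held 0.1% of the reads in Sham 4 and 1.3% or more in each Cur gel library. The heat map of gene lists by library shows these differences. In whole tissue, fewer cells of a type and less RNA per cell cannot be told apart.

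**Figure D1:**
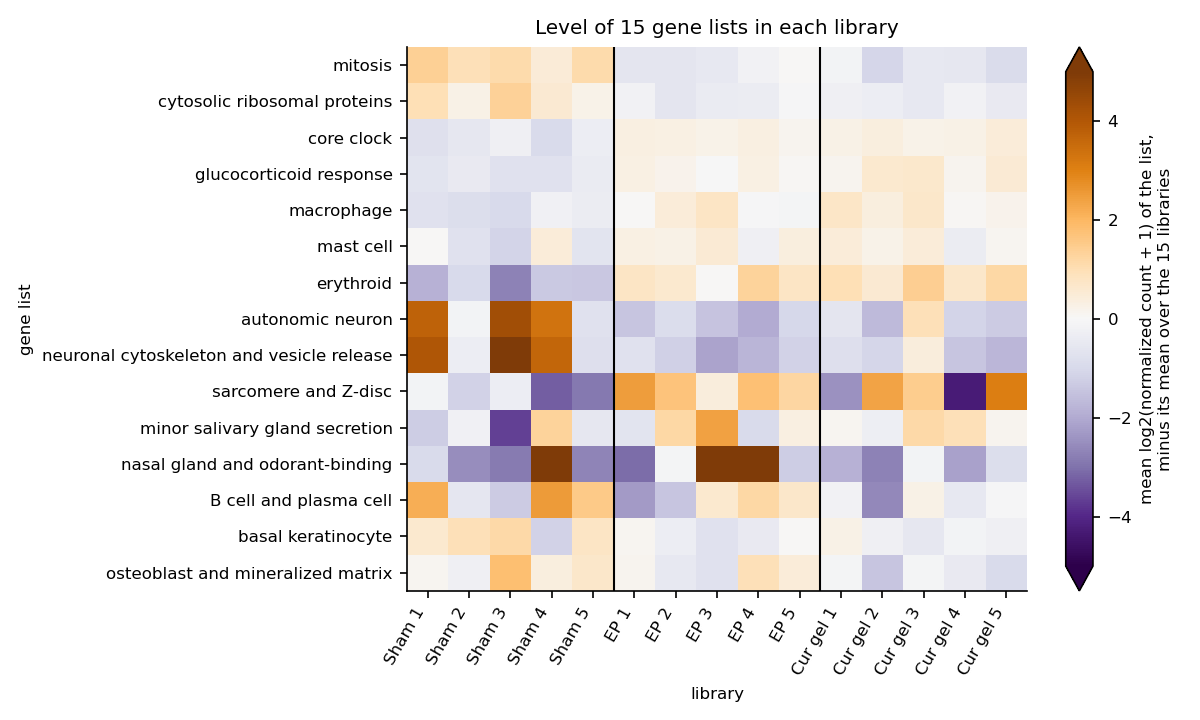
Level of 15 gene lists in each of 15 libraries (columns), as the mean of log2(normalized count + 1) over the genes of a list minus its mean over the 15 libraries. Orange is higher, purple is lower, and values past the ends of the scale are drawn at its ends. Mitosis and ribosomal protein genes were higher in each sham library than in each Cur gel library, whereas the nerve lists were high in Sham 1, Sham 3 and Sham 4.

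After 4 weeks of curcumin gel, 6098 genes still differed from sham (38% of those tested), 3043 higher (19%) and 3055 lower (19%). At least 2-fold differences were found for 2653 genes (16.5%), of which 1731 were higher (10.8%) and 922 lower (5.74%). At least 4-fold differences were found for 480 genes that were higher and 209 that were lower. For 2835 genes (17.7%) the 2 groups did not overlap, with 1420 genes higher in each Cur gel library than in each sham library (8.85%) and 1415 lower (8.82%). The called genes that were higher took 3.45% to 12.5% of normalized counts in sham libraries and 16.6% to 18.4% in Cur gel libraries. When libraries were scaled to total reads, 3050 genes were called, 2358 of them higher, as the median difference of all genes moved from -0.032 to 0.157. Without Sham 1, Sham 3 and Sham 4, which leaves 2 sham libraries, 1130 genes were called, 410 of them higher. The plot of all genes shows the spread of these differences over expression levels.

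**Figure D2:**
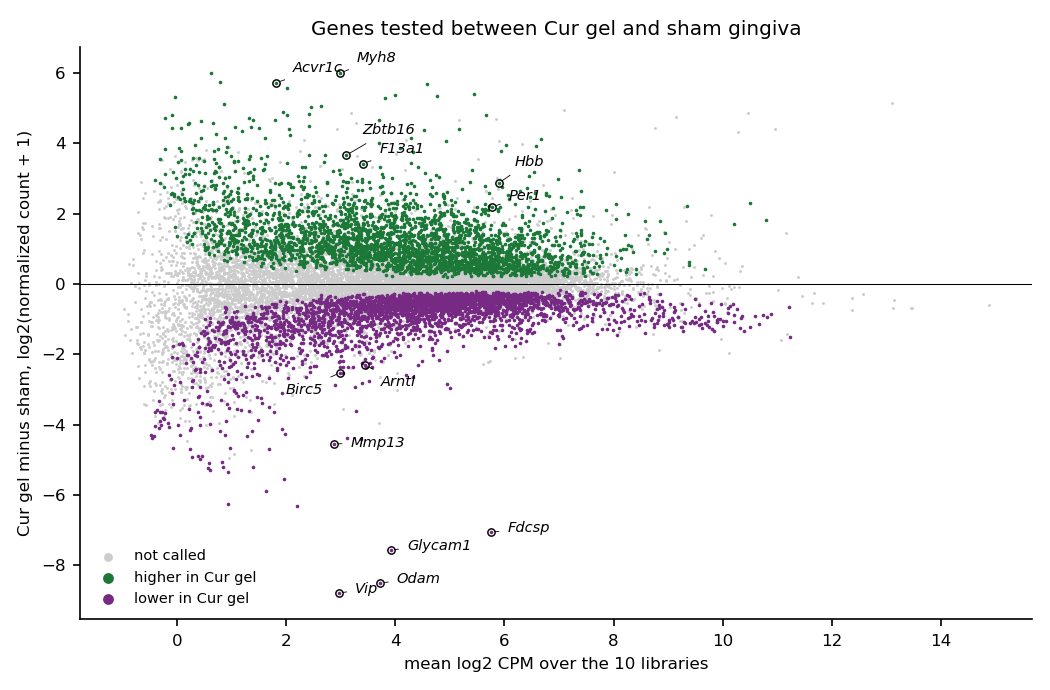
Difference between Cur gel and sham (vertical axis, log2 scale) against the mean level over the 10 libraries (horizontal axis, log2 CPM) for 16052 genes. Green genes were called higher and purple genes lower at an adjusted p under 0.05, grey genes were not called, and genes labelled by name are ringed. Odam, Fdcsp, Vip and Glycam1 lie lowest among the ringed genes.

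Among called genes whose groups did not overlap (mean log2 CPM of at least 1), the largest fall was that of Odam, a secreted protein of the junctional epithelium and of maturing enamel. Odam held 4499, 7280, 6521, 18375 and 7036 normalized counts in Sham 1 to Sham 5, and 1185, 0, 7.76, 5.34 and 66.5 in Cur gel 1 to Cur gel 5. It was thus near 0 in 3 Cur gel libraries, and the groups did not overlap. The difference was -8.50 on the log2 scale (SE 2.27, adjusted p = 0.0059). Fdcsp encodes a small secreted protein of follicular dendritic cells and of junctional epithelium, and lies 23.6 kb from Odam on chromosome 14 (start to start, Rnor_6.0). Its counts were 31606, 35316, 70004, 16033 and 35887 in sham and 12571, 77.5, 47.5, 62.3 and 351 in Cur gel, so that Cur gel 1 was again the highest of its group. It differed by -7.06 (adjusted p = 0.0091). For both genes Cur gel 5 was the next highest. Both calls held with each single library left out, and both lost significance without Sham 1, Sham 3 and Sham 4 (adjusted p = 0.12 and 0.14), with differences of -8.39 and -7.13.

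In EP the 2 genes varied widely. Odam ranged from 6.96 to 16312 and Fdcsp from 33.1 to 8047, and neither differed from sham past the threshold (adjusted p = 0.27 and 0.097). Between Cur gel and EP, Odam had an unadjusted p of 0.029 and Fdcsp of 0.18, and neither passed the adjustment. In that comparison limma called 0 genes (0%), with 284 at an unadjusted p under 0.05, edgeR called 0 (503 at an unadjusted p under 0.05) and DESeq2 called 79.

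**Figure D3:**
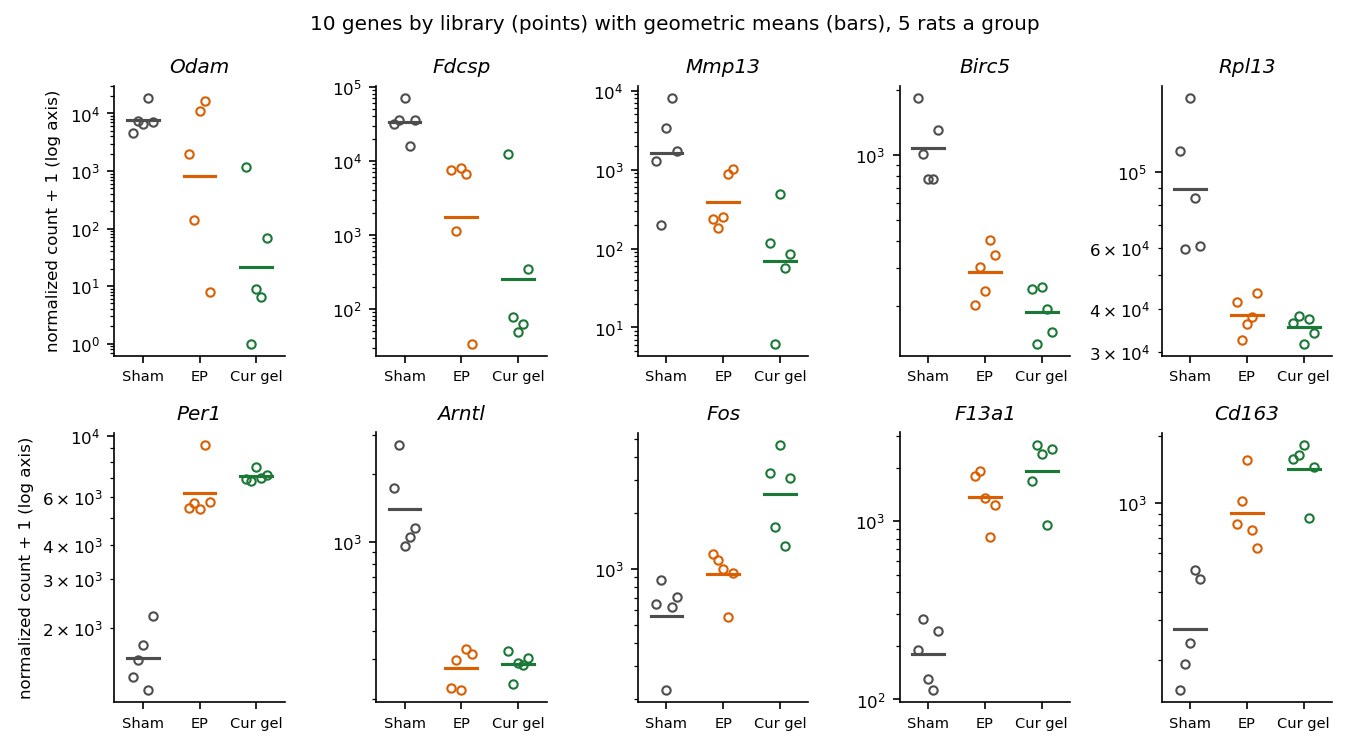
Normalized count + 1 (log axis) of 10 genes in the sham, EP and Cur gel groups. Points are libraries of 1 rat each and bars are geometric means, and the Cur gel points lie apart from the sham points except for Mmp13.

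Of 29 tested genes of the mitosis list (spindle, kinetochore and chromosome passenger proteins), 28 were lower and 0 higher (96.6% lower, against 19% of all genes). The median was -1.69 against -0.032 over all genes. In 24 of the 29 each Cur gel library lay below each sham library, against 8.82% of all genes. The 1 gene not called was Plk1, a mitotic kinase (0.11, adjusted p = 0.87). Birc5 (survivin, a subunit of the chromosome passenger complex) held 1828, 1008, 769.7, 770.4 and 1301 normalized counts in sham and 239, 133, 245, 192 and 151 in Cur gel. Each Cur gel library lay below each sham library, and the difference was -2.52 (SE 0.27, adjusted p = 5.1e-06). Nusap1, which bundles spindle microtubules, went from 1134 to 1629 in sham and from 252 to 501 in Cur gel (-2.10, adjusted p = 5.1e-06). Ube2c, an enzyme that marks mitotic proteins for degradation, differed by -2.52 and Aurka, a spindle pole kinase, by -1.69 (adjusted p = 1.5e-05 for both). Among the 12 largest falls, chosen as for Odam, were also Pttg1 (securin, -2.65), Aurkb (the kinase of the chromosome passenger complex, -2.64) and Pimreg (a mitotic regulator, -2.62). Aurkb ranged in sham from 1171 to 12086. The count of 28 was the same with each library left out in turn, and was 26 without Sham 1, Sham 3 and Sham 4 and 24 with scaling to total reads.

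Of 29 tested genes of DNA replication, 15 were lower and 0 higher (51.7% lower, against 19% of all genes, median -0.521). There were 2 lower without Sham 1, Sham 3 and Sham 4 and 5 with scaling to total reads. Rfc5 (clamp loader) held 1874, 989, 1698, 1799 and 1148 in sham and 821, 634, 669, 749.8 and 655 in Cur gel, a difference of -1.05 without overlap (adjusted p = 7.9e-05). Gins2 and Gins4, subunits of the replicative helicase, differed by -0.83 and -1.02, and Tk1, the S phase thymidine kinase, by -1.24. Tk1 had the largest difference of this list. Hmgb2, a chromatin protein of dividing cells, went from 8378 ± 1717 (SD, n = 5) in sham to 2453 ± 343 (SD, n = 5) in Cur gel (adjusted p = 1e-05). In EP the same lists held 28 and 18 genes lower than sham, against 18.8% of all genes, and Birc5 ranged from 201 to 403.

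The promoters of mitotic genes are known for CCAAT boxes and for the sequence TTTGAA, the cell cycle homology region. In RefSeq promoters (GRCr8, 250 bases before to 50 after the start of a gene), searched on both strands, CCAAT was found in 16 of the 23 mitosis genes with an entry (69.6%) and in 37.4% of 11298 tested genes. TTTGAA was found in 15 of 23 (65.2%) and in 12.1% of tested genes, and both sequences in 11 of 23 (47.8%) and 4.82%. Of 25 replication genes, 2 held TTTGAA (8%), whereas TTTCGCGC, a form of the E2F site, was found in 8 (32%) and in 0.549% of tested genes, and TTTGGCGC in 6 (24%) and 0.85%. The letters differed between the lists, although a match is not a bound site. The promoters of the 2 mitosis genes with the smallest p among those with both sequences are shown, with CCAAT or its reverse complement and TTTGAA in capitals. They lie at chr10:103571896-103572195 (plus strand) for Birc5 and at chr3:127057045-127057344 (plus strand) for Nusap1.
Birc5: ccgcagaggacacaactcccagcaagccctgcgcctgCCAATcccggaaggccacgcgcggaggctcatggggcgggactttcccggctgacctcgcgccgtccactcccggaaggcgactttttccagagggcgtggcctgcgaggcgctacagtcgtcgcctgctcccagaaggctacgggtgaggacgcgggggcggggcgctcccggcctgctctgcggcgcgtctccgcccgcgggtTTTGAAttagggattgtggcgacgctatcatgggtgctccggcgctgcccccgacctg
Nusap1: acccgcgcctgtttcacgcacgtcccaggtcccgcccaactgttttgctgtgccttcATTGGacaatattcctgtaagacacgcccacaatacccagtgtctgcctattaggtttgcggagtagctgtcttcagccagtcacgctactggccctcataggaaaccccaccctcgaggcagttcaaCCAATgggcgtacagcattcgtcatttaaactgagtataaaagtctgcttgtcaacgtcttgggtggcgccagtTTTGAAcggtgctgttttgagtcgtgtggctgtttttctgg

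Of 37 tested genes of the cytosolic ribosome, 36 were lower (97.3%, against 19% of all genes), 0 were higher and Rpl30 was not called (-0.87, adjusted p = 0.24). The median was -0.996. In 34 genes each Cur gel library lay below each sham library, against 8.82% of all genes. Rpl13, of the large subunit, held 114782, 59553, 163663, 84204 and 60839.8 in sham and 36409.7, 38244, 31678, 37429 and 34081 in Cur gel, a difference of -1.33 (adjusted p = 8.2e-05). Sham 2 and Sham 5 were the lowest of their group and still lay above each Cur gel library. Rpl35 and Rpl14, of the same subunit, differed by -1.33 and -1.22. The count was 36 with each library left out, 28 without Sham 1, Sham 3 and Sham 4, and 21 with scaling to total reads.

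Named next are the abundant genes with the smallest p (mean log2 CPM of at least 6). The 12 lower ones included the splicing proteins Hnrnpl (-0.81), Srsf4 (-0.75) and Snrpd2 (-1.28), the actin regulators Arpc4 (-1.04) and Cfl1 (-1.24), the tubulin Tubb4b (-1.04), Atp1b3, a subunit of the sodium pump (-1.44), and Erh, Ptma, Vps25, Hmgb2 and Arl6ip1. With scaling to total reads Hnrnpl and Srsf4 lost their calls (adjusted p = 0.0593 and 0.106), and the other lower genes named here kept theirs. Arpc4 held 11387, 6638, 11354, 10387 and 8310.1 in sham and 4787, 4878, 4474, 4139 and 4681 in Cur gel. The 12 higher ones included the Golgi tether Golga4 (1.35), the scaffold Akap9 (1.16), the poly-ADP-ribosyltransferase Tnks2 (0.80), the exchange factor Dock9 (1.11) and the selenium carrier Selenop (1.51). Golga4 held 5091, 8993, 4985, 5295 and 7363 in sham and 11660.5, 20717, 15699, 14508 and 17670 in Cur gel. Calls in both directions moved with the genomic span of the gene as listed in the deposited table, a property examined after these genes were seen. When protein-coding genes were split by span into 4 equal sets, in the set with the shortest span (median 3.48 kb), 9.31% were higher and 28.3% lower. In the set with the longest span (median 96.1 kb), 33% were higher and 9.2% lower. Without Sham 1, Sham 3 and Sham 4 the shares were 1.53% and 6.78% for the shortest and 4.5% and 2.55% for the longest. Transcript length, RNA integrity and intron reads were not examined, and the part of span in each gene's result was not tested.

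**Figure D4:**
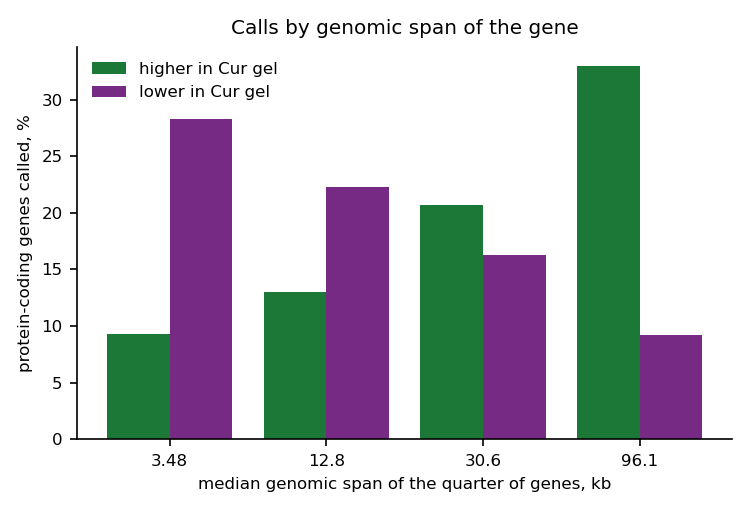
Percent of protein-coding genes called higher (green) and lower (purple) in Cur gel, in 4 equal sets by genomic span, each given by its median in kb. The share higher rises from 9.31% to 33% and the share lower falls from 28.3% to 9.2%.

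Genes of the circadian clock differed in both of its arms. The clock is a feedback loop in which Arntl (BMAL1) with Clock or Npas2 drives the Per and Cry repressors and the PAR bZIP factors Dbp, Tef and Hlf. Of 19 tested clock genes 14 were higher and 3 lower (73.7% and 15.8%, against 19% of all genes in each direction). Clock (0.76, adjusted p = 0.35) and Nfil3 (-0.62, adjusted p = 0.17) were not called. Without overlap were 10 genes that were higher and 2 that were lower, against 8.85% and 8.82% of all genes. Per1 held 1321, 1533, 1733, 1187 and 2213 in sham and 6979, 6849, 7691, 7013 and 7201 in Cur gel, without overlap. Its difference of 2.19 (SE 0.15) had an adjusted p of 1.8e-08. Per2 differed by 2.18, Per3 by 1.58, Tef by 1.32 and Bhlhe41, a repressor of the loop, by 2.16.

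In the opposite direction, Arntl held 1738, 2705, 955, 1047 and 1156 in sham and 326, 230.3, 288, 281 and 301 in Cur gel. Each Cur gel library lay below each sham library (-2.30, adjusted p = 5.1e-06). Npas2 differed by -1.70 and Nr1d1, a repressor of Arntl, by -0.54 (adjusted p = 0.024), a call lost without Cur gel 3, Cur gel 5 or Sham 3 (adjusted p at most 0.086). In EP, 14 of the genes were higher and 2 lower than sham, against 18.8% of all genes in each direction, with Per1 at 1.98 and Arntl at -2.36. The hour at which tissue was taken is not given in the labels, and its part was not tested. There were 12 clock genes higher and 2 lower without Sham 1, Sham 3 and Sham 4.

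The sequence CACGTG, the E-box bound by the Arntl dimer, was looked for after these values were seen. It was found in 4 of 15 clock genes with a promoter entry (26.7%) and in 8.89% of tested genes. The 2 called clock genes with the smallest p among these were Bhlhe41 (chr4:180569306-180569605, minus strand) and Tef (chr7:115206577-115206876, plus strand), both on GRCr8 and shown with the E-box in capitals.
Bhlhe41: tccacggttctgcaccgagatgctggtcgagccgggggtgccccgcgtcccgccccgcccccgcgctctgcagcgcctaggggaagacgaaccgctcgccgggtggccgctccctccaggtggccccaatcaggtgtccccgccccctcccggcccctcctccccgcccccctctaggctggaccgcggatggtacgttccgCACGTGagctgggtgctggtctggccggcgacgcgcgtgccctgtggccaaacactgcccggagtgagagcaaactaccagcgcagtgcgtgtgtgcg
Tef: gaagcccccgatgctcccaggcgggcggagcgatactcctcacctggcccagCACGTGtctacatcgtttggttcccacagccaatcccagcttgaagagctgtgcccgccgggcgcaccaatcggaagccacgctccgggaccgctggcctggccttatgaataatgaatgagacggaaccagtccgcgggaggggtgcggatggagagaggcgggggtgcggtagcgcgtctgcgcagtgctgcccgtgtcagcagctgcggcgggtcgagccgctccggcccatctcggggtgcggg

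Of 17 tested genes that respond to glucocorticoids, a list that shares Per1 with the clock, 10 were higher and 1 lower (median 0.89). These were 58.8% and 5.88%, against 19% of all genes in each direction. There were 8 higher without Sham 1, Sham 3 and Sham 4. Tsc22d3 (GILZ, a glucocorticoid-induced inhibitor of inflammatory transcription) held 3587, 3856, 6551, 4469.8 and 5412 in sham and 10737, 14524, 15842, 12392 and 14769 in Cur gel. The number lower was 0 without Cur gel 2, Cur gel 3, Cur gel 5, Sham 1 or Sham 3, and 2 without Sham 4. For Tsc22d3 the groups did not overlap, and the difference was 1.54 (SE 0.17, adjusted p = 8.8e-06). Dusp1, a phosphatase that switches off MAP kinases, went from 3999 ± 237 (SD, n = 5) to 11531 ± 2119.5 (SD, n = 5) (1.51, adjusted p = 1.5e-05). Zbtb16, a zinc finger factor with hormone-dependent expression, held 56.9, 193, 111, 109.8 and 257 in sham and 1071, 3228, 1783, 693 and 2712 in Cur gel (3.66). Errfi1, a feedback inhibitor of the EGF receptor, differed by 1.27 and Glul, glutamine synthetase, by 1.79. In EP, Tsc22d3 differed from sham by 0.75, Dusp1 by 0.80 and Errfi1 by 0.62. Between Cur gel and EP these genes had unadjusted p-values of 0.00018, 0.00069 and 0.0026, and adjusted p-values of 1, 1 and 1.

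Of 22 immediate early genes, which respond to stimuli within minutes, 6 were higher and 3 lower (27.3% and 13.6%, against 19% of all genes in each direction). Fos held 649.6, 873, 222, 624 and 703 in sham and 3293, 1677, 4661, 1336 and 3068 in Cur gel, and Fosb 91.7, 83.6, 43.3, 44.7 and 72.7 and 721, 245, 865, 148 and 950.4. Both, subunits of the AP-1 factor, were without overlap (2.18 and 2.84, adjusted p = 0.00022 and 0.00035). Klf6 was higher (1.43) and Ier2 lower (-0.53, adjusted p = 0.0025). In EP, Fos differed from sham by 0.73 (adjusted p = 0.12) and Fosb by 0.71 (adjusted p = 0.28). Cur gel exceeded EP by 1.44 for Fos and 2.13 for Fosb at unadjusted p-values of 0.00067 and 0.00039, which did not pass the adjustment (1 and 1).

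**Figure D5:**
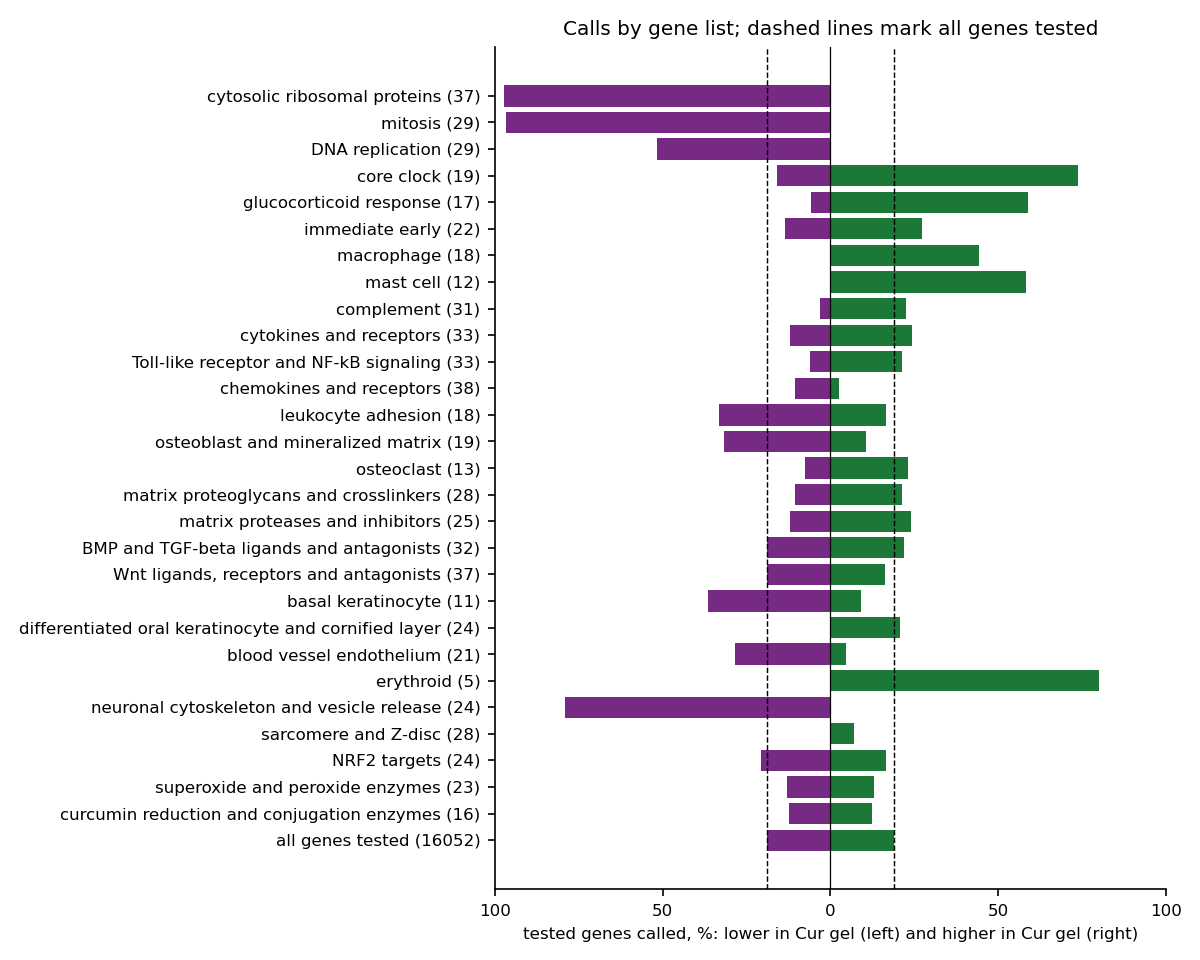
Percent of the tested genes of 28 lists called lower (purple, left) or higher (green, right) in Cur gel than in sham, with the number tested in parentheses. Dashed lines mark 19% on both sides, the share over all genes tested. Ribosomal proteins, mitosis and neuronal genes reach farthest to the left, and erythroid, clock, glucocorticoid and mast cell genes farthest to the right.

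Of 18 tested macrophage markers, 8 were higher and 0 lower (44.4% higher, against 19% of all genes, median 0.88). There were 7 higher and 1 lower without Sham 1, Sham 3 and Sham 4. F13a1, coagulation factor XIII subunit A of resident macrophages, held 188, 281, 129.8, 112 and 239.8 in sham and 1691, 2689.6, 2395, 954 and 2554 in Cur gel. The lowest Cur gel library was above the highest sham library, and the difference was 3.42 (SE 0.32, adjusted p = 2.4e-06). Cd163, the hemoglobin scavenger receptor, held 146, 191, 237, 504 and 456 and 1581, 1641, 1823, 856 and 1444 (2.38, adjusted p = 0.00016). Lyve1, a hyaluronan receptor of macrophages and lymphatic vessels, differed by 2.05 and Stab1, a scavenger receptor, by 1.45. The list summed to 0.0207% to 0.0606% of the reads in sham and 0.0464% to 0.0946% in Cur gel, so that the sums overlapped. General markers of the lineage such as Csf1r, Cd68 and C1qa, members of the same list, were not called.

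Of 12 tested mast cell genes 7 were higher and 0 lower (58.3% higher, against 19% of all genes, median 1.17). Without Sham 1, Sham 3 and Sham 4, 1 was higher. Cpa3, a mast cell carboxypeptidase, held 199, 196, 128, 193 and 162 in sham and 799, 1030.2, 544, 305 and 520 in Cur gel (1.76, adjusted p = 0.0029). Tpsb2 (tryptase) differed by 1.52, Cma1 (chymase) by 1.41 and Il1rl1, the receptor of interleukin 33, by 1.81. Cur gel 4 was the lowest of its group for Cpa3, Tpsb2, Cma1 and Il1rl1, and it fell within the sham range for the last 2.

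Of 33 cytokines and receptors 8 were higher and 4 lower (24.2% and 12.1%, against 19% of all genes in each direction). They included the interleukin 1 receptors Il1r1 (1.07), Il1rap (1.61) and the decoy Il1r2, which held 241, 277, 271, 276 and 275 in sham and 522, 805, 736, 825 and 654 in Cur gel (1.38, adjusted p = 0.00012). Il6st (gp130, the shared receptor of the interleukin 6 family) held 1864, 9290, 1035, 1226 and 7143 and 11649, 12039, 12977, 11793 and 11739.7, with Sham 2 and Sham 5 close to the Cur gel range (2.13, adjusted p = 0.00056). Without Sham 1 the count lower was 2, and without Sham 1, Sham 3 and Sham 4 the counts were 3 higher and 1 lower. Of 33 genes of Toll-like receptor and NF-kB signaling, 7 were higher and 2 lower (21.2% and 6.06%, against the same 19%), including Tlr5 (1.68), Tlr4 (0.73) and the adaptor Traf6 (1.29) as higher and Pycard, the inflammasome adaptor, as lower (-1.32, adjusted p = 0.00084). The count higher was 4 without Cur gel 3, 3 without Sham 3 and 0 without Sham 1, Sham 3 and Sham 4. The count lower was 1 without any of Cur gel 2, Cur gel 3, Cur gel 5 and Sham 3. Nlrp10, a cytosolic sensor of keratinocytes, held 432, 372, 406, 142 and 342 in sham and 79.1, 29.3, 16.4, 89.1 and 106 in Cur gel (-2.59, adjusted p = 0.00062).

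Of 31 complement genes 7 were higher and 1 lower, the share higher (22.6%) being near the 19% of all genes. The count was 4 without Cur gel 1, Cur gel 3, Sham 1 or Sham 3 and 2 without Sham 1, Sham 3 and Sham 4, and the 1 lower gene was lost without Cur gel 2, Cur gel 4, Sham 1 or Sham 4. C6 and C7, of the membrane attack complex, differed by 2.75 and 2.80, and C6 held 65.4, 235, 48.5, 148 and 195 in sham and 877, 819.7, 1012, 577 and 747 in Cur gel (adjusted p = 0.00024). C4b, of the classical pathway, differed by 1.55. Of 38 chemokines and receptors 1 was higher and 4 were lower (2.63% and 10.5%, below the 19% of all genes). The higher gene was Ccl11 (eotaxin), which held 1736, 3936, 1947, 1394 and 2260.1 in sham and 4645, 5759, 4564, 5469.6 and 4597 in Cur gel (1.24, adjusted p = 0.0026). The 4 lower chemokine genes included Cxcl14 (-1.07), whose call was lost without Sham 3 (adjusted p = 0.057), and the number lower was 1 without Cur gel 2, Sham 1 or Sham 4 and 2 without Cur gel 4. The number higher was 2 without Cur gel 3, Sham 2 or Sham 5. Tnf ranged from 11.8 to 92.8 in sham and from 8.38 to 70.8 in Cur gel (-0.51, adjusted p = 0.62). The interferon-stimulated Mx2 (1.64), Ifih1 (0.74) and Ddx58 (1.90) were higher, among 4 of 25 genes of that list (16%, against 19% of all genes), and 0 of the 25 were called without Sham 1, Sham 3 and Sham 4.

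Of 18 genes of leukocyte adhesion, by which these cells leave the blood, 6 were lower and 3 higher (33.3% and 16.7%, against 19%). The count lower was 1 without Sham 1, Sham 3 and Sham 4 and 1 with scaling to total reads. The count higher was 1 without Cur gel 2, Cur gel 5 or Sham 1 and 0 without Sham 3. Icam1, the ligand of leukocyte integrins, held 4100.2, 2436, 2403, 2549 and 2914 in sham and 2351, 1402, 1515, 1637 and 1672 in Cur gel (-0.74, adjusted p = 0.0027), and Icam2 differed by -0.86. Both genes lost their calls with scaling to total reads (adjusted p = 0.179 and 0.0898). Glycam1, a mucin of the high endothelial venules of lymph nodes, held 57023, 2594, 519, 34020.1 and 22639.9 in sham and 13.7, 10.5, 102, 18.7 and 724 in Cur gel. Its sham libraries with the highest counts were those rich in B cell transcripts, Sham 1, Sham 4 and Sham 5, and the groups overlapped. The difference was -7.56 (adjusted p = 0.016, and 0.18 without Sham 1, Sham 3 and Sham 4). B cell genes summed to 0.101% to 0.227% of reads in sham and 0.0563% to 0.118% in Cur gel, and their part in the result for Glycam1 was not tested.

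Of 19 tested genes of osteoblasts and mineralized matrix, 6 were lower and 2 higher (31.6% and 10.5%, against 19%, median -1.44), 3 were lower without Sham 3, and 2 without Sham 1, Sham 3 and Sham 4. Ibsp, the bone sialoprotein that nucleates mineral, held 1340.4, 569, 3176, 4842 and 1228 in sham and 363, 177, 457, 362 and 94.2 in Cur gel. The groups did not overlap (-2.76, SE 0.79, adjusted p = 0.009). Pth1r, the parathyroid hormone receptor, held 596, 551, 1629, 809 and 589.6 and 267, 228, 285, 319 and 282 (-1.47, adjusted p = 0.00043), and the osteoblast factor Dlx5 differed by -1.72. Dmp1, a matrix protein of osteocytes, and Spp1, osteopontin, differed by -2.35 and -2.96. The call of Dmp1 was lost without Sham 3 (adjusted p = 0.062) and that of Spp1 without Cur gel 2, Cur gel 5, Sham 1, Sham 3 or Sham 4 (adjusted p at most 0.104). Higher were Smpd3, a sphingomyelinase needed for mineralization, which held 1376, 1716, 1728, 1140.3 and 1206 in sham and 4313, 5182, 4567, 3109.7 and 6195 in Cur gel (1.69), and Phex (2.20), a peptidase of osteoblasts. In EP, 2 genes of the list were higher and 2 lower than sham, against 18.8% of all genes in each direction. There Ibsp differed by -1.47 (adjusted p = 0.14).

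Of the genes named in the study, Bglap (osteocalcin) held 2239.9, 249, 10622, 2020.4 and 1248 in sham and 589.7, 129, 829, 793 and 260.5 in Cur gel (-2.03, adjusted p = 0.052). It did not pass the threshold with all libraries, and did so without Cur gel 3, Cur gel 4 or Sham 2. Tnfrsf11b (osteoprotegerin, the decoy that keeps RANKL from osteoclast precursors) held 226, 383, 198, 362 and 609 and 635, 628, 1149, 716 and 477 (1.07, adjusted p = 0.016), a call lost without Cur gel 3, Sham 1 or Sham 3 (adjusted p at most 0.055). Ceacam1 and Cd47 differed by 0.99 and 0.29 and were not called (adjusted p = 0.13 and 0.39), although Ceacam1 passed without Sham 4. Il4 lay below the filter. Of 13 osteoclast genes 3 were higher and 1 lower (23.1% and 7.69%, against 19%), with a median of -0.322, and 0 were called without Sham 1, Sham 3 and Sham 4. The higher ones included Ostm1 (0.89, then 0.50 with adjusted p = 0.14 without the 3 libraries) and Clcn7 (0.70, then 0.23 with adjusted p = 0.24), partners in the chloride transport that acidifies the resorption pit. Car2, the carbonic anhydrase of the same step, held 875, 565, 893, 13228 and 711 in sham and 272, 391, 236, 324 and 313 in Cur gel. It was lower by call (-2.13, adjusted p = 0.038) with Sham 4 far above the rest, and without Sham 4 the difference was -1.30 (adjusted p = 0.13). The call of Car2 was also lost without any single Cur gel library.

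Lox, the oxidase that crosslinks collagen and elastin, held 5162, 2523, 1639, 6797 and 4085 in sham and 926, 568, 994, 571 and 1062 in Cur gel, without overlap (-2.17, adjusted p = 0.00073). The small proteoglycans Prelp (1.52) and Dcn (1.00) were higher, and Dcn held 18895, 30283, 16964, 20904 and 25762 in sham and 42598, 57545, 45988, 34386 and 42997 in Cur gel. With Fbln2 (1.06) they were among 6 of 28 proteoglycan and crosslinking genes that were higher (21.4%), while 3 were lower (10.7%, against 19% of all genes for both), and without Sham 1, Sham 3 and Sham 4 these counts were 0 and 1. Of 21 collagen chains 1 was higher, Col14a1 (2.09), and 3 were lower (4.76% and 14.3%, below the 19% of all genes). Among the lower ones was Col18a1 (-0.97), the source of endostatin. The number of collagen chains higher was 2 without Cur gel 1, 3 without Cur gel 4 or Sham 5, and 4 without Sham 2, and the number lower was 1 without Cur gel 2 and 5 without Sham 4.

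Among 25 matrix proteases and inhibitors 6 were higher and 3 lower (24% and 12%, against 19%). Mmp13, a collagenase of bone and inflamed gum, held 1295, 197, 3349, 8017 and 1704 in sham and 115, 5.23, 487, 55.2 and 85 in Cur gel. Sham 2 lay within the Cur gel range, and the difference was -4.54 (SE 1.07, adjusted p = 0.0024). In EP, Mmp13 differed from sham by -2.05 (adjusted p = 0.13), and from Cur gel at an unadjusted p of 0.029. The inhibitors Timp2 (1.07) and Timp3 (1.32) were higher, and Timp3 held 1675, 6478, 3409, 2555 and 6482 in sham and 7439.6, 10406, 11041, 7016 and 9874 in Cur gel. Adamts14, a procollagen peptidase, was lower (-1.28). No gene of the list was called without Sham 1, Sham 3 and Sham 4, where Mmp13 differed by -3.05 (adjusted p = 0.19).

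Of 32 genes of the BMP and TGF-beta families 7 were higher and 6 lower, shares near those of all genes. Bmp2 held 1659, 1150.4, 2029.8, 752 and 1482 in sham and 746, 587, 429, 640.3 and 497 in Cur gel (-1.23, adjusted p = 0.00062), whereas Bmp6 held 179, 749, 226, 124 and 548 and 1191, 1523, 1694, 2296 and 1187 (2.39, adjusted p = 0.00051). The 2 ligands thus lay on opposite sides of sham, both without overlap. Id1 (-1.48) and Id3 (-1.30), targets of BMP signaling, were lower. The count higher was 4 without Cur gel 2 or Cur gel 5, 3 without Sham 1 and 1 without Sham 1, Sham 3 and Sham 4. Of 37 Wnt genes 6 were higher and 7 lower (16.2% and 18.9%, against 19% of all genes). They included the co-receptor Lrp6 (1.86) and the receptor Fzd4 (1.40) as higher and Wnt6 (-1.45) and Fzd6 (-0.91) as lower. The count lower was 12 without Sham 4, 5 without Sham 1, Sham 3 and Sham 4, and 2 with scaling to total reads. The count higher was 1 without Sham 1, Sham 3 and Sham 4. In that fit Fzd4 was not called (adjusted p = 0.138), whereas Lrp6, Wnt6 and Fzd6 kept their calls. With scaling to total reads Wnt6 and Fzd6 lost theirs (adjusted p = 0.0579 and 0.155).

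In the epithelium, Lamb3, a chain of laminin 332 that anchors basal cells, held 6429, 6291, 11434, 1392 and 5787 in sham and 2853, 1819.6, 1498, 2109.6 and 2085 in Cur gel (-1.35, adjusted p = 0.0051). Sham 4 was the lowest of all, below each Cur gel library. The call of Lamb3 was lost with scaling to total reads (adjusted p = 0.108). Of 11 basal keratinocyte genes 4 were lower and 1 higher (36.4% and 9.09%, against 19% of all genes). The count lower was 7 without Sham 4, 1 without Cur gel 2, Cur gel 5 or Sham 3, and 2 without Cur gel 3, Sham 1, Sham 2 or Sham 5. It was 4 without Sham 1, Sham 3 and Sham 4, and 0 with scaling to total reads or with the 2 groups fitted alone. The 1 higher gene was not called in any fit without Cur gel 1, Cur gel 2, Cur gel 5, Sham 1, Sham 3 or Sham 4, and without Sham 2 there were 2. Of 24 genes of differentiated keratinocytes and the cornified layer 5 were higher (20.8%, against 19%) and 0 lower, 8 being higher without Sham 2, 2 lower without Sham 4, and 0 higher without Sham 1, Sham 3 and Sham 4. The envelope proteins Sprr3 (2.47), Lor (2.11) and Ivl (2.93, and 1.95 without Sham 4) were among them. Hrnr held 123, 6794, 138, 14.2 and 5296 in sham and 21058, 6515, 3563, 8457 and 9470.4 in Cur gel (4.40, adjusted p = 0.0041), and Sham 2 and Sham 5 lay within the Cur gel range. Tjp1, a scaffold of tight junctions, differed by 0.47.

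The 12 largest rises, chosen as for Odam, had low counts in Sham 1, Sham 3 and Sham 4 and higher ones in Sham 2 and Sham 5, with the exception of the globin Hba-a3. Acvr1c, a type I receptor for activin and nodal, held 4.22, 179, 0, 0 and 176 in sham and 544, 594, 663, 962 and 332 in Cur gel (5.73, adjusted p = 0.00068). Gcnt3, which builds mucin glycans, held 52.7, 614, 5.24, 102 and 947 and 3939, 5248, 6709, 5751 and 3155 (5.38, adjusted p = 0.016), and its call and that of Hhipl2 (5.07) were lost without Sham 3 (adjusted p = 0.057 and 0.074). Mfsd4a (4.82), the calcium sensor Cracr2a (5.03) and Ano7 (4.89) held their calls with each single library left out. The calls of Chst4, a sulfotransferase of gland mucins, Adam28 and Abo3 were lost without any of Cur gel 1 to Cur gel 5, Sham 1, Sham 3 or Sham 4, and the difference for Adam28 was 3.49 without Sham 3 against 5.35 with it. Those of Mug1 and Cuzd1 were lost without Cur gel 2, Cur gel 3, Sham 1 or Sham 3, that of Cuzd1 also without Cur gel 4. Without Sham 1, Sham 3 and Sham 4 none of these 11 genes was called, Acvr1c having an adjusted p of 0.14. Genes of salivary gland secretion took 0.106% to 4.53% of reads in sham and 6.19% to 15.9% in Cur gel, without overlap. By the mean of log2 values over the list the groups overlapped, with Sham 4 (13.9) above each Cur gel library (12.3 to 13.7). Of the 12 tested 1 was called higher (8.33%, below the 19% of all genes), 4 without Sham 2 and 3 without Sham 5. The epithelial factor Ehf, of glands and squamous cells, held 2123, 9511, 2605, 4218 and 7911 in sham and 15577, 13984, 15478, 20870.2 and 10438 in Cur gel (1.74, adjusted p = 0.008). The part of gland content in these results was not tested.

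Of 21 endothelial genes 6 were lower and 1 higher (28.6% and 4.76%, against 19% of all genes, median -0.019). There were 3 lower without Sham 1, Sham 3 and Sham 4. With scaling to total reads 1 was lower and the median was 0.171. Plvap, the diaphragm protein of fenestrated vessels, held 10832, 17166, 11573, 10686 and 12947 in sham and 5209, 7222, 5083, 5427 and 6697 in Cur gel, without overlap (-1.08, adjusted p = 0.00065). Sox18 (-1.04) and the apelin receptor Aplnr (-1.18) were lower too, but lost their calls with scaling to total reads (adjusted p = 0.057 and 0.058). Vwf, the clotting protein of endothelium, held 3331, 6165, 1959, 3598 and 3329 and 9751, 7067, 11279, 8049 and 10496 and was the 1 higher gene (1.42, adjusted p = 0.0024), while without Sham 2 there were 4. Without Sham 1, Sham 3 and Sham 4, Vwf differed by 1.02 (adjusted p = 0.157) and 0 endothelial genes were higher. In EP, Plvap differed from sham by -0.61, Aplnr by -0.37 and Vwf by 1.29.

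Of 5 tested erythroid genes 4 were higher (80%, against 19% of all genes). The count was 4 with each library left out and 3 without Sham 1, Sham 3 and Sham 4. Hbb (beta globin) held 1941, 1064, 795, 2238 and 1170.3 in sham and 11428, 6887, 10634, 11376 and 9375 in Cur gel (2.87, adjusted p = 2.7e-05). Hba-a1 differed by 2.51, Alas2, which starts heme synthesis in erythroid cells, by 3.63, and the anion exchanger Slc4a1 by 3.52. Hba-a3 (4.67) is a close copy of Hba-a1, and reads of the globin copies could have been split between them. Its call was lost without Sham 2 or Sham 5 (adjusted p at most 0.066). The erythroid list summed to 0.00232% to 0.00432% of reads in sham and 0.0226% to 0.0326% in Cur gel, and the blood content of the samples was not tested.

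Of 24 genes of the neuronal cytoskeleton and vesicle release 19 were lower and 0 higher (79.2% lower, against 19% of all genes, median -3.13). The count lower was 5 without Sham 3, 7 without Sham 1 and 11 without Sham 4. It was 10 without Cur gel 5, 12 without Cur gel 4 and 0 without Sham 1, Sham 3 and Sham 4. Vip, a peptide of parasympathetic neurons, held 24570.5, 180.5, 57245, 20908 and 79.6 in sham and 86, 0, 289.9, 0 and 0 in Cur gel. Sham 2 and Sham 5 lay within the Cur gel range (-8.79, adjusted p = 0.0064, and 0.43 without the 3 libraries). Tubb3 (-2.84), Uchl1 (-4.40), the choline transporter Slc5a7 (-6.24) and the sensory peptide Calca (-4.65) showed the same sham libraries as high. Slc10a4 of synaptic vesicles was lower (-3.02), a call lost without Sham 3 (adjusted p = 0.053). Ngfr, a neurotrophin receptor, held 1953, 1473, 2211, 695 and 1426 in sham and 791, 374, 283, 505 and 339 in Cur gel. It was lower also without the 3 libraries (-1.75, adjusted p = 0.001, then -1.76, adjusted p = 0.026). For Ngfr, Sham 4 was the lowest sham library and Cur gel 3 the lowest of all, and its cell type of origin was not tested. Gfap and Nell2 differed by -2.67 and -2.67. Of 16 tested genes of Schwann cells and myelin 4 were lower and 0 higher (25% lower, against 19% of all genes). Without Sham 1, Sham 3 and Sham 4, 1 was lower. The list took 0.241% to 0.563% of reads in sham and 0.067% to 0.768% in Cur gel, with Cur gel 3 above each sham library. Slc6a2, the noradrenaline transporter, was higher (2.85, adjusted p = 0.0033), and held 167, 975, 337, 175 and 1066 in sham and 1818, 2925, 3065, 3841 and 3241 in Cur gel. Without Sham 1, Sham 3 and Sham 4 it differed by 1.5 and was not called (adjusted p = 0.303). Vsx1, a homeobox gene known from the retina, was lower (-4.18) and lost its call without Cur gel 2 (adjusted p = 0.051).

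Of 28 sarcomere genes 2 were higher with limma (7.14%, below the 19% of all genes), but 15 with edgeR and 20 with DESeq2. The limma count was 0 with the 2 groups fitted alone and 0 without Sham 1, Sham 3 and Sham 4. It was 17 without Cur gel 4, 7 without Cur gel 1, and 1 without Cur gel 2, Cur gel 3, Cur gel 5, Sham 3, Sham 4 or Sham 5. The list took 0.0582% to 1.05% of reads in sham and 0.103% to 4.67% in Cur gel, so that the groups overlapped. Myh8, the perinatal myosin heavy chain, held 306, 212, 34.1, 0 and 14.7 in sham and 167, 8619, 24125, 73.9 and 14932 in Cur gel (6.0, adjusted p = 0.0037). Cur gel 2, Cur gel 3 and Cur gel 5 were high, as for Ppargc1a, a regulator of mitochondria in muscle (2.85), and Jph2, of the calcium release junction (2.67). In EP 18 sarcomere genes were higher than sham, against 18.8% of all genes. Fbp2, the muscle form of fructose bisphosphatase, differed by 1.60.

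Of 24 targets of NRF2, the activator of oxidant defense, 4 were higher and 5 lower (16.7% and 20.8%, against 19%), with 2 higher without Sham 1, and the median was -0.115. The number lower was 0 without Sham 1, Sham 3 and Sham 4 and 1 with scaling to total reads. Gsta1, a glutathione transferase, held 908, 1361, 1813, 1008 and 1371 in sham and 3426, 5762, 5607, 3467 and 5074 in Cur gel, without overlap (1.86, SE 0.25, adjusted p = 4.6e-05). In EP it differed from sham by 1.23, and Cur gel against EP had an unadjusted p of 0.02. Closely related transferase genes could have shared its reads. Prdx1 (-0.79), the ferritin light chain Ftl1 (-0.96) and the carbonyl reductase Cbr1 (-0.72) were lower. Without the 3 sham libraries they differed by -0.39, -0.26 and -0.28 and were not called (adjusted p = 0.19, 0.38 and 0.32). Of 23 enzymes of superoxide and peroxide 3 were higher and 3 lower (13% for both, below the 19% of all genes). The higher ones included Nox4, an oxidase that makes hydrogen peroxide (1.58, adjusted p = 0.00049), and catalase (0.80). Thioredoxin Txn1 was lower (-0.84, then -0.51 with adjusted p = 0.29 without the 3 libraries). Of the 3 lower genes 0 were called there or with scaling to total reads.

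Of 16 enzymes and transporters that reduce, conjugate or export curcumin 2 were higher and 2 lower (12.5% for both, below the 19% of all genes). There were 5 lower without Sham 4. Sult1a1, a phenol sulfotransferase, held 655, 1446, 1558, 2008 and 1029 in sham and 2209.7, 3204, 3881, 2333 and 2664 in Cur gel. The lowest Cur gel library lay above the highest sham library (1.16, SE 0.24, adjusted p = 0.001). In EP it differed by 0.54 (adjusted p = 0.081), and Cur gel against EP had an unadjusted p of 0.017 that did not pass the adjustment. The exporter Abcc1 was higher (1.30, adjusted p = 0.0051), and the reductases Cbr1 and Akr1a1 (-0.42) were lower. Sult1a1 differed by 1.20 (adjusted p = 0.0097) and Abcc1 by 0.32 (adjusted p = 0.53) without Sham 1, Sham 3 and Sham 4. There Cbr1 and Akr1a1 differed by -0.28 and -0.16 (adjusted p = 0.32 and 0.39), and both also lost their calls with scaling to total reads (adjusted p = 0.097 and 0.37).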

How the data were processed

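Gingival RNA of 25 rats in 5 groups of 5 was sequenced (ribosomal RNA removed, stranded total RNA libraries, Illumina NovaSeq). The deposited values are a signal per Ensembl transcript on Rnor_6.0, made by the authors as reads divided by the DESeq2 size factor of the library. The aligner and counter are not given in the sources used here. All values gave whole reads to within 0.01. From 41078 transcripts, 396 without a symbol (at most 0.013% of reads) and 840 blank lines were left out, and the rest were summed over 29818 gene symbols, 78 of which lie on more than 1 chromosome. Genes with at least 2 CPM in at least 1 library were kept, following the study's methods.

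Log2(normalized count + 1) was fitted with limma 3.58.1 (R 4.3.3, robust and trended) across the 25 libraries jointly, with no block term, two-sided, with Benjamini-Hochberg adjustment over 16052 genes and a threshold of 0.05. Fold changes of low genes are understated on this scale. Alternatives included edgeR 4.0.16 and DESeq2 1.42.0 on the recovered reads. P-values measure the spread between rats, pooled over the 5 groups of the joint fit. Sham varied more than Cur gel (median standard deviation 0.495 against 0.291), so the pooled value need not match the spread in sham. With the 2 groups fitted alone 3350 genes were called, against 6098. On simulated counts for Cur gel against sham (16052 genes, 50 changed per fold), 8% of 1.5-fold, 42% of 2-fold and 86% of 4-fold changes were recovered. These shares hold for data with few changed genes, whereas 38% of genes were called here.

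The members, gene lists and tests were chosen with earlier results of these data known. Named were the 12 largest rises and falls among called, non-overlapping genes whose mean log2 CPM reached 1, the 12 higher and lower genes of smallest p whose mean log2 CPM reached 6, the members of smallest p per list (4 at most), and genes the study names. Chosen after their values were seen were Plk1, Rpl30, Clock, Nfil3, Npas2, Nr1d1, Dmp1, Spp1, Csf1r, Cd68 and C1qa. The replicate numbers did not pair rats: correlations of same-numbered libraries were -0.143, 0.28, -0.295, -0.000558 and -0.216.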

Additional observations from a re-analysis of the deposited data

Results flagged for a closer look

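Among 342 pairs of a named gene and a group, 18 had 1 library whose gap to the nearest other library exceeded 0.71 of the range of the group, where chance gives about 1 in 20. Of these, 12 were in sham and 7 of them in Sham 4. Sham 4 stood low for Nlrp10 (142.3 normalized counts), Plk1 (581.3), Clock (176.8) and Tpsb2 (56.9), and high for Car2 (13228), Nox4 (286.6) and Cat (7244). Sham 3 stood low for Fos (221.6), C4b (2125), Alas2 (0) and Ppargc1a (22.3). Sham 1 stood low for Il1r2 (241.5). In the Cur gel group, Cur gel 1 stood high for Col18a1 (8208) and low for Fbp2 (579.1), Cur gel 2 low for Hmgb2 (1874), Cur gel 4 low for Lrp6 (4097), and Cur gel 5 high for Per2 (12879) and low for Cbr1 (252.1).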

How the results depend on the processing

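Of 6098 genes called between Cur gel and sham, the count was 3350 when the 2 groups were fitted alone, 3050 with scaling to total reads (2358 higher), 1130 without Sham 1, Sham 3 and Sham 4, and 4718 to 6945 when 1 library was left out, lowest without Sham 1. The other settings gave 5861 to 7372, the last with DESeq2. At least 2-fold differences numbered 465 without Sham 1, Sham 3 and Sham 4 and 2051 to 3390 when 1 library was left out, against 2653. Genes without overlap numbered 2835, 2877 with TMM scaling and 2899 to 3939 when 1 library was left out. DESeq2 called 79 genes between Cur gel and EP (9 higher), where limma and edgeR called 0. Without Sham 1, Sham 3 and Sham 4, 2 sham libraries remain, and the cause of the lower counts was not tested. Of 163 called genes named in the text, 147 kept their call in each of 10 fits without 1 library, 138 with scaling to total reads and 80 without Sham 1, Sham 3 and Sham 4. The replicate block gave 5990 calls, and 2 named genes lost theirs. Genes that were not called changed sign: Plk1 (0.11) was -0.086 without Cur gel 4, -0.12 without Sham 4 with or without EP 3 and EP 4, and -0.14 without Sham 1, Sham 3 and Sham 4 (-0.12 to 0.24 over fits without 1 library). In that last fit Rpl30 was 0.53 and Clock -0.38, and Clock was -0.27 without Sham 4, also with EP 3 and EP 4 left out (-0.27 to 1.09 over fits without 1 library). With 5 rats a group, 1.5-fold changes were rarely recovered on simulated data (8%), in which few genes were changed. The adjustment is stricter there than in these data, where 38% of genes were called, so the 8% does not describe this comparison.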

Other observations

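Of 21 genes of endoplasmic reticulum stress 5 were higher and 0 lower in Cur gel than in sham (23.8% higher, near the 19% of all genes), with a median of 0.052. With edgeR and with DESeq2, 3 were higher and 1 lower. Atf6, a membrane-bound transcription factor, differed by 1.67 (limma, adjusted p = 0.00018) and held 1209.6, 3537, 1067, 1337 and 3574 normalized counts in sham and 5639, 6185, 6315, 6357 and 5064 in Cur gel, without overlap. Ern1, a sensor with ribonuclease activity, differed by 0.86 (adjusted p = 0.0036). The count was 3 without Cur gel 2, 2 without Cur gel 3, Cur gel 4, Sham 1 or Sham 3, and 1 without Sham 1, Sham 3 and Sham 4. Of 16 heat shock genes 1 was higher (6.25%, below the 19% of all genes), the mitochondrial chaperone Hspa9 (0.92, adjusted p = 0.003). None was lower with all libraries, with 3 lower without Sham 4 and 1 without Sham 2 or Sham 5.

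Of 18 adipocyte genes 5 were higher (27.8%, against 19% of all genes) and 0 lower. Cidea, a lipid droplet protein, held 134, 488, 197, 315 and 263 in sham and 541, 752, 669, 875 and 853 in Cur gel, without overlap (1.51, adjusted p = 0.0013). The count was 3 without Cur gel 3, Cur gel 5, Sham 1, Sham 3 or Sham 4, and 0 without Sham 1, Sham 3 and Sham 4. Of 20 genes of MHC class II and dendritic cells 3 were lower and 0 higher with limma (15% lower, below the 19% of all genes). With edgeR 9 were lower and with DESeq2 12. The limma count lower was 0 with the 2 groups fitted alone or with scaling to total reads. It was 10 without Sham 3, 9 without Sham 2, 1 without Cur gel 1, Cur gel 3, Cur gel 4 or Sham 5, and 0 without Cur gel 2 or Sham 1.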
